A study of Mus musculus with 12 samples.

Results

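The 42 genes described here encode proteins of the cell cycle and of DNA replication, given as a list of gene symbols. They were looked up in a table of 54532 genes, of which a filter on low counts kept 13800, and all 42 were among those kept. By known role, 7 are G1 cyclins, E2F and an activating phosphatase, 3 are CDK inhibitors and 9 belong to origin licensing. A further 6 act in DNA synthesis and repair, 7 are mitotic entry kinases and cyclins, and 10 serve the spindle, the kinetochore and the chromosomes. Poly-A RNA was sequenced from mouse bone marrow-derived macrophages, primary cells grown from marrow of 8-week-old male mice in medium with M-CSF (50 ng/mL), which both matures macrophages and keeps them dividing. There were 4 groups of 3 libraries. They were Itga9-Lyz2-cKO cells given Pg for 2 hours at a multiplicity of infection of 1:20 (cKO Pg), Itga9-Lyz2-cHet cells given the same (cHet Pg), and untreated cells of each genotype (cKO control and cHet control). Pg is the submitters' name for the stimulus. Both genotypes carry the Itga9 and Lyz2 terms in their labels, so neither is a plain wild type, and Lyz2 is the lysozyme gene used to drive Cre in myeloid cells. Whether the 3 libraries of a group stem from different animals or cultures is not stated, so p-values measure only how these libraries vary, and that variation may be technical.

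A cell commits to division in G1, when D-type and E-type cyclins with their kinases inactivate the retinoblastoma protein and free E2F transcription factors. CDK inhibitors oppose this step. Before S phase, Cdc6 and Cdt1 load the Mcm helicase on origins, and geminin then blocks a renewed loading. Mitosis needs cyclins A and B, Cdk1 and a set of spindle and kinetochore genes that are repressed in resting cells, through a promoter element called CHR among others. Macrophages grown in M-CSF divide while they mature, and inflammatory stimuli are known to slow this.

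Library totals lay between 14527674 and 16793803 counts. Itga9 had 13.6, 11.6 and 7.84 CPM (counts scaled to TMM-adjusted library size) in cKO Pg and 19.4, 34.0 and 33.4 CPM in cHet Pg. It had 11.5, 5.98 and 6.42 CPM in cKO control and 32.3, 17.9 and 18.9 CPM in cHet control. Every cKO library was below every cHet library of the same treatment, and Itga9 reads remained in all cKO libraries (mean genotype log2 difference -1.46 ± 0.26 (SE), edgeR adjusted p 0.0118). Taken by treatment, the difference was -1.39 ± 0.36 under Pg (edgeR adjusted p 0.125) and -1.53 ± 0.37 in controls (edgeR adjusted p 0.0497). All 9 macrophage markers passed the filter, at 8440.3 to 12156 CPM in sum per library. The 42 genes took 0.168% to 0.227% of the counts of a library, and 0.0552% to 0.0835% without Mki67 and Cdkn1a.

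Libraries of the same group differed in these genes in a shared direction, and this touches every comparison. In cKO Pg, library 1 was the highest of the group for 26 of the 42 genes and library 3 the lowest for 34. In cHet Pg, library 1 was the lowest for 38, and libraries 2 and 3 were the highest for 23 and 16. Library 1 was the highest for 37 of the 42 genes in cKO control and for 35 in cHet control. Over all genes kept, the shares for the same places were 30.4% and 35.8% in cKO Pg, 36.2% for the lowest place in cHet Pg, 38.5% in cKO control and 36.5% in cHet control, against 61.9% and 81%, 90.5%, 88.1% and 83.3% of the 42 genes.

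The spread was wide in mitotic genes. The geometric mean of the 16 mitotic genes other than Mki67 was 5.58, 5.15 and 3.28 CPM in the 3 cKO Pg libraries and 3.86, 6.64 and 6.34 CPM in cHet Pg. It was 6.60, 4.09 and 3.99 CPM in cKO control and 6.45, 4.18 and 3.96 CPM in cHet control. The same 6 libraries, namely cKO Pg 1 and 2, cHet Pg 2 and 3, cKO control 1 and cHet control 1, stood above their group's mean in licensing genes, whose geometric means were 19.0, 18.2 and 13.5 CPM in cKO Pg and 13.3, 21.0 and 21.0 CPM in cHet Pg. Those of the controls were 21.0, 14.3 and 15 CPM in cKO and 22.7, 15.5 and 15.6 CPM in cHet. High and low libraries occurred in all 4 groups, and the groups overlapped in both measures. They were not evenly placed, however. Libraries 1 and 2 of cKO Pg and 2 and 3 of cHet Pg were high, but only library 1 of each control group. The order was thus not balanced between Pg and control in either genotype.

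**Figure D1:**
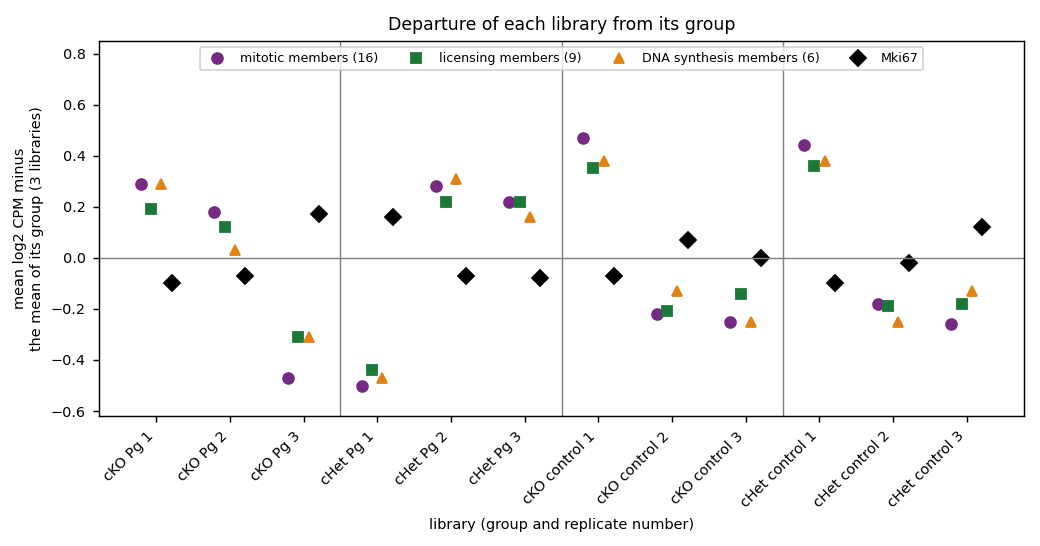
For each of the 12 libraries (horizontal axis), the mean log2 CPM of 16 mitotic, 9 licensing and 6 DNA synthesis genes minus the mean of the 3 libraries of its group (vertical axis), with Mki67 alone as black diamonds. The 3 gene sets lie on the same side of 0 in every library, from -0.50 to 0.47 for the mitotic set, and Mki67 lies on the other side or at 0 in all but 1.

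Of the 32 licensing, synthesis and mitotic genes, 27 lay on the same side of their group's mean as the average of the others in at least 10 of the 12 libraries, and 18 did so in all 12. Among the 13768 other genes kept, 12.7% did so in at least 10 libraries and 3.05% in all 12. Deviations within a group sum to 0, so the 12 sides are not independent, and the counts are a description. Genes that followed the others in all 12 libraries included Mcm3 to Mcm6, Cdc6, Cdt1, Gmnn, Pcna, Rrm1, Rrm2, Plk1, Top2a and Cenpe. Of the G1 genes, Ccnd1 and Ccne1 did so in 11 libraries and E2f1 in 10, but Cdc25a in 6.

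A pair of genes stood on the other side. Cdkn1b, which encodes the CDK inhibitor that keeps cells out of S phase, was on the same side as the replication and mitosis genes in 0 of the 12 libraries. Mki67, the proliferation marker that coats mitotic chromosomes, was on the same side in 1 of 12. Among the other genes kept, 6.83% were on the same side in at most 1 library.

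Other values differed between the same libraries. Itgax, which encodes the integrin chain CD11c, had 103, 121 and 48.1 CPM in cKO Pg, 59.4, 137 and 132 CPM in cHet Pg, 126, 42.6 and 45.2 CPM in cKO control and 115, 37.2 and 36.4 CPM in cHet control, so that the 6 libraries named above were again the high ones. Itga9 itself, with the values given above, was also higher in these 6 than in the other libraries of their groups. The 9 markers of granulocyte-monocyte progenitors, all kept by the filter, summed to 210.3, 139.5 and 131 CPM in cKO Pg, 172, 257 and 249 CPM in cHet Pg, 182, 143 and 131 CPM in cKO control and 230.1, 173 and 196 CPM in cHet control, where cKO Pg 2 was near cKO Pg 3 and not among the high libraries. The 9 macrophage markers summed to 10367, 11042 and 12156 CPM in cKO Pg, 11663, 10039 and 9931 CPM in cHet Pg, 8440.3, 9658 and 9625 CPM in cKO control and 8483, 9084 and 9692 CPM in cHet control. Their sum was lowest in cKO Pg 1, cHet Pg 3, cKO control 1 and cHet control 1, all among the 6 libraries high in mitotic genes. Csf1r gave the largest part of it (mean 4690 CPM), and the 9 markers did not move as one. Csf1r, Adgre1, Itgam and Cd14 were each lower in all 6 libraries than in the others of their groups. Cd68 and Mertk were each higher in all 6, and Fcgr1, Mrc1 and Cx3cr1 were mixed. The part of these values in the spread was not tested. In bulk RNA, fewer dividing cells and less RNA of these genes per cell cannot be told apart.

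**Figure D2:**
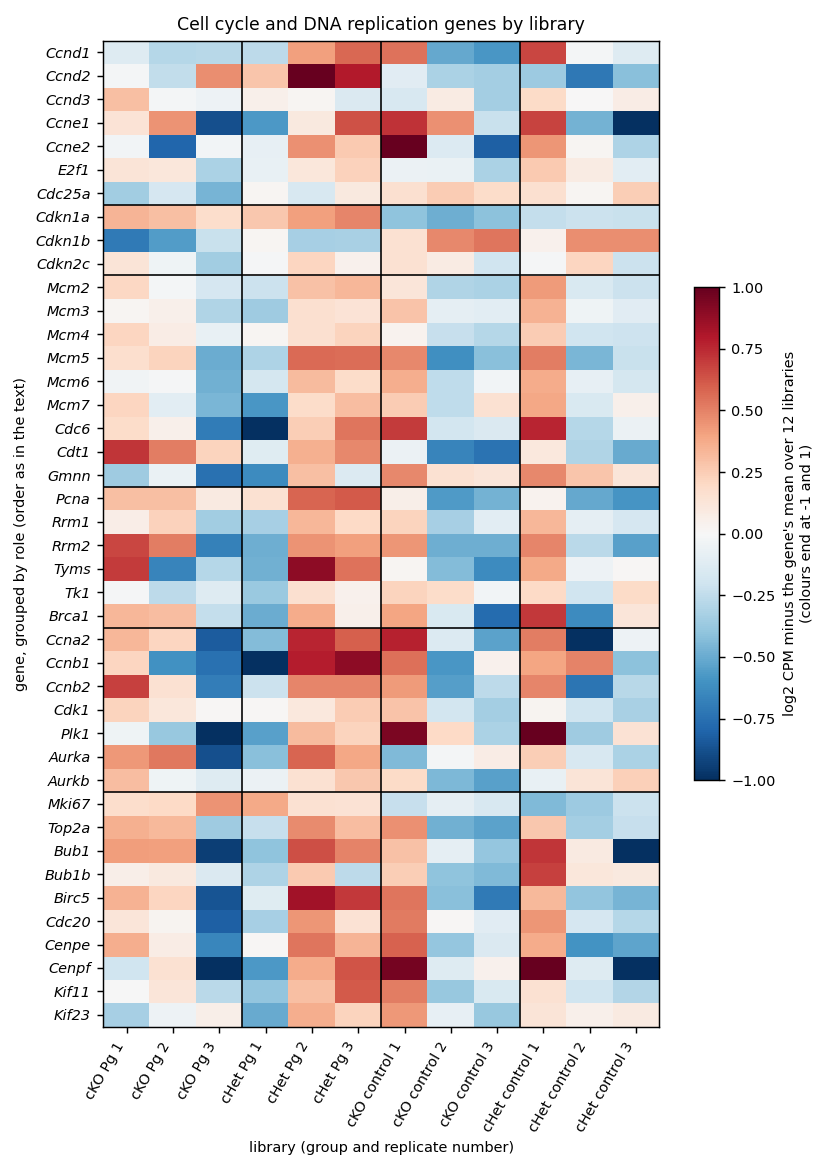
Log2 CPM of each of the 42 genes (rows, by role) in each of the 12 libraries (columns) minus that gene's mean over the 12, with colours ending at -1 and 1. In the lower 4 blocks, cKO Pg 3 and cHet Pg 1 are mostly blue, and cKO control 1 and cHet control 1 mostly red.

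The spread can be read gene by gene. The median biological coefficient of variation, which is the replicate variation beyond counting noise in the fit, was 20.2% for the 42 genes and 10.5% for all genes kept. Among the roles its median was 29.6% for mitotic kinases and cyclins, 23.5% for spindle and chromosome genes, 22.8% for DNA synthesis, 17.4% for licensing, 15.6% for the G1 genes and 11.6% for the CDK inhibitors. Mitotic genes were also low in level, with a median mean of 4.23 CPM for the kinases and cyclins against 15 CPM for all genes kept. The highest library of a group exceeded the lowest by a median of 1.98-fold in cKO Pg, 1.83-fold in cHet Pg, 1.91-fold in cKO control and 1.69-fold in cHet control over the 16 mitotic genes.

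Promoter sequence is shown for genes that moved together across libraries and for Mki67, which did not. RefSeq windows on GRCm38.p6, from 250 bases before to 50 after the start, were at hand for 35 of the 42 genes and were searched on both strands. The letters of CHR were TTTGAA, and those of E2F were TTTCCCGC, TTTGGCGC, TTTCGCGC or TTTGCCGC. Capitals mark the matches, which are descriptions of the letters and not evidence of a bound site. The opposite strand of TTTGAA reads TTCAAA, and the Mcm5 window holds a pair of E2F matches that share letters.
Cdk1, chr10:69352863-69353162 (minus strand): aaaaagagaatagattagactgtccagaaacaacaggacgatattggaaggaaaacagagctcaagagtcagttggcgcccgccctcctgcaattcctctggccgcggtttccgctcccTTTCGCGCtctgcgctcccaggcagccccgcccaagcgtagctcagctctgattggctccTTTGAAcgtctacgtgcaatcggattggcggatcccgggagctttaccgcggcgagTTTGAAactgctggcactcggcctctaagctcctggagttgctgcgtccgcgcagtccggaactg
Top2a, chr11:99024140-99024439 (minus strand): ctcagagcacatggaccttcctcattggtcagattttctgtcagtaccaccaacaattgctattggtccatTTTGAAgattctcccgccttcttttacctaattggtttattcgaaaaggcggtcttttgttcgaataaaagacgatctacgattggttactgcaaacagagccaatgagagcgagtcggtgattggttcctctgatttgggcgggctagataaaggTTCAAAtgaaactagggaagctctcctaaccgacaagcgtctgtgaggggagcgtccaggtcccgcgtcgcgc
Mki67, chr7:135716330-135716629 (minus strand): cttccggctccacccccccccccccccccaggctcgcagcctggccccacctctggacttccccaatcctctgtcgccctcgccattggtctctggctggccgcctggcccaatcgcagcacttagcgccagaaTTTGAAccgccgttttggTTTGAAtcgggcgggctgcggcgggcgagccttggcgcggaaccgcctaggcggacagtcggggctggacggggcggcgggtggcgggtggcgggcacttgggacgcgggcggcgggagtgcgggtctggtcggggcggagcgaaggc
Mcm5, chr8:75109259-75109558 (plus strand): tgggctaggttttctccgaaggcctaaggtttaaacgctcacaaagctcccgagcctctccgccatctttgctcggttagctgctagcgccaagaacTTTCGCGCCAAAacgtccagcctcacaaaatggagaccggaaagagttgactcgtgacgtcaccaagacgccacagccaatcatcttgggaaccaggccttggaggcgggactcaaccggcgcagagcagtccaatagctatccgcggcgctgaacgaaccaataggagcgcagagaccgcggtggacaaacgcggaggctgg
Cdt1, chr8:122567765-122568064 (plus strand): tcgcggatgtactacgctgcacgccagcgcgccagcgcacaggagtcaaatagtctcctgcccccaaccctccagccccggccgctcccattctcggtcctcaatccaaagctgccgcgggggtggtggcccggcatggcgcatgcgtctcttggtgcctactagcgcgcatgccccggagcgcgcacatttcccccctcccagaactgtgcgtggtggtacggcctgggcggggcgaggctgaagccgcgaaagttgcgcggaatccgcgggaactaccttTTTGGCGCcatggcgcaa

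The 35 genes had 39 windows, and a gene was counted if any of its windows matched. Shares over all are of windows and not of genes, so the units differ. E2F letters occurred in 8 of the 35 genes with a window, and in 2.26% of all 32851 windows. They were in 6 of the 7 licensing genes with a window, in Cdc25a among the G1 genes and in Cdk1. CHR letters occurred in 12 of 35 genes and in 17.9% of all windows. They were in 4 of 5 mitotic kinases and cyclins and 7 of 10 spindle and chromosome genes, and in Mcm2 among the licensing genes. Cdk1 alone held both, as did 0.274% of all windows. Mki67 held a pair of CHR matches, as did Top2a. The levels of Mki67 and Top2a lay on opposite sides of their group means in most libraries. A link between the letters and the levels was not tested.

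Levels per gene length set Mki67 apart as well. Over the 12 libraries Cdkn1a had 233 CPM per kb, Pcna 78.4, Mki67 44.3, Cdt1 17.7 and Mcm3 10.8 CPM per kb. The other 16 mitotic genes had a median of 1.38 CPM per kb, and Mki67 was 32.2-fold above it and 14.9-fold above Top2a. The lowest of the 42 was Cenpf, a kinetochore gene, with 0.21 CPM per kb. Counting used a strand setting that is not given in the sources used here, so genes overlapped by a counted neighbour are uncertain. The neighbour had at least 10% of the gene's own count for Ccnd1, Ccnd3, Ccne2, Mcm7, Tk1, Ccna2 and Cdc20. Mki67 had only Gm45240 overlapping it, with a mean of 1 count against 6885.

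**Figure D3:**
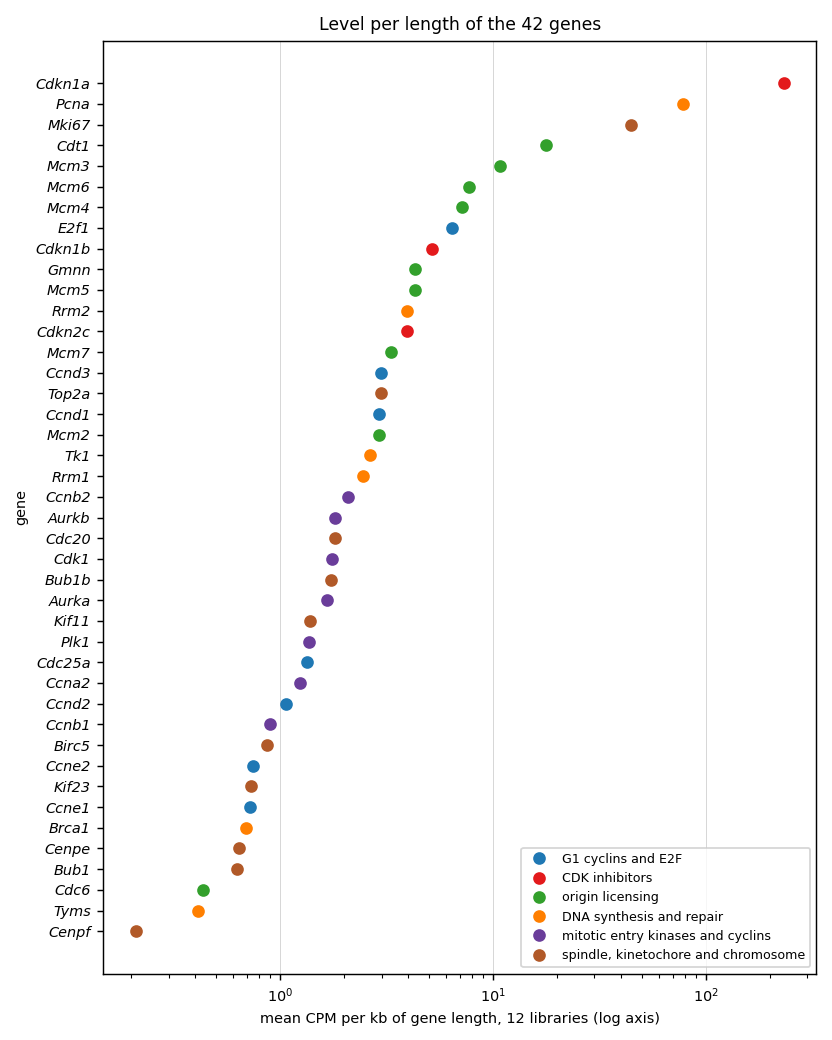
Mean level of each of the 42 genes over the 12 libraries in CPM per kb of gene length (log axis), in rank order and coloured by role. Cdkn1a (233), Pcna (78.4) and Mki67 (44.3) lead, and the other mitotic genes lie between 0.21 and 2.97.

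Few of the 42 genes were called changed with Pg. In cKO cells 3 were higher and 3 lower, and 36 did not pass the threshold (edgeR quasi-likelihood test, Benjamini-Hochberg adjusted p 0.05 over all genes kept). That is 14.3% of the list, against 34% of all genes kept, of which 16.9% were higher and 17.1% lower. In cHet cells 4 were higher and 1 lower, 11.9% of the list against 36.1% of all genes, of which 18% were higher and 18% lower. The 42 genes had a higher median biological coefficient of variation than all genes kept (20.2% against 10.5%) and a lower median level (9.38 against 15 CPM). A change of a given size was therefore harder to call among them, and a gene not called may still have changed. The median log2 change of the 42 was 0.07 in cKO and 0.12 in cHet. More Pg than control libraries were among those high in mitotic and licensing genes, as given above. Changes with Pg, of single genes and of the median, therefore cannot be told apart from this order of libraries where a gene follows or opposes it. Its part in them was not tested. Scaled by library size alone, the median of all genes was -0.25 in both genotypes, and the list then had 2 higher and 4 lower in cKO and 3 higher and 5 lower in cHet. All genes then split into 1229 higher and 5343 lower in cKO (47.6% called) and 1288 higher and 5438 lower in cHet (48.7% called).

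**Figure D4:**
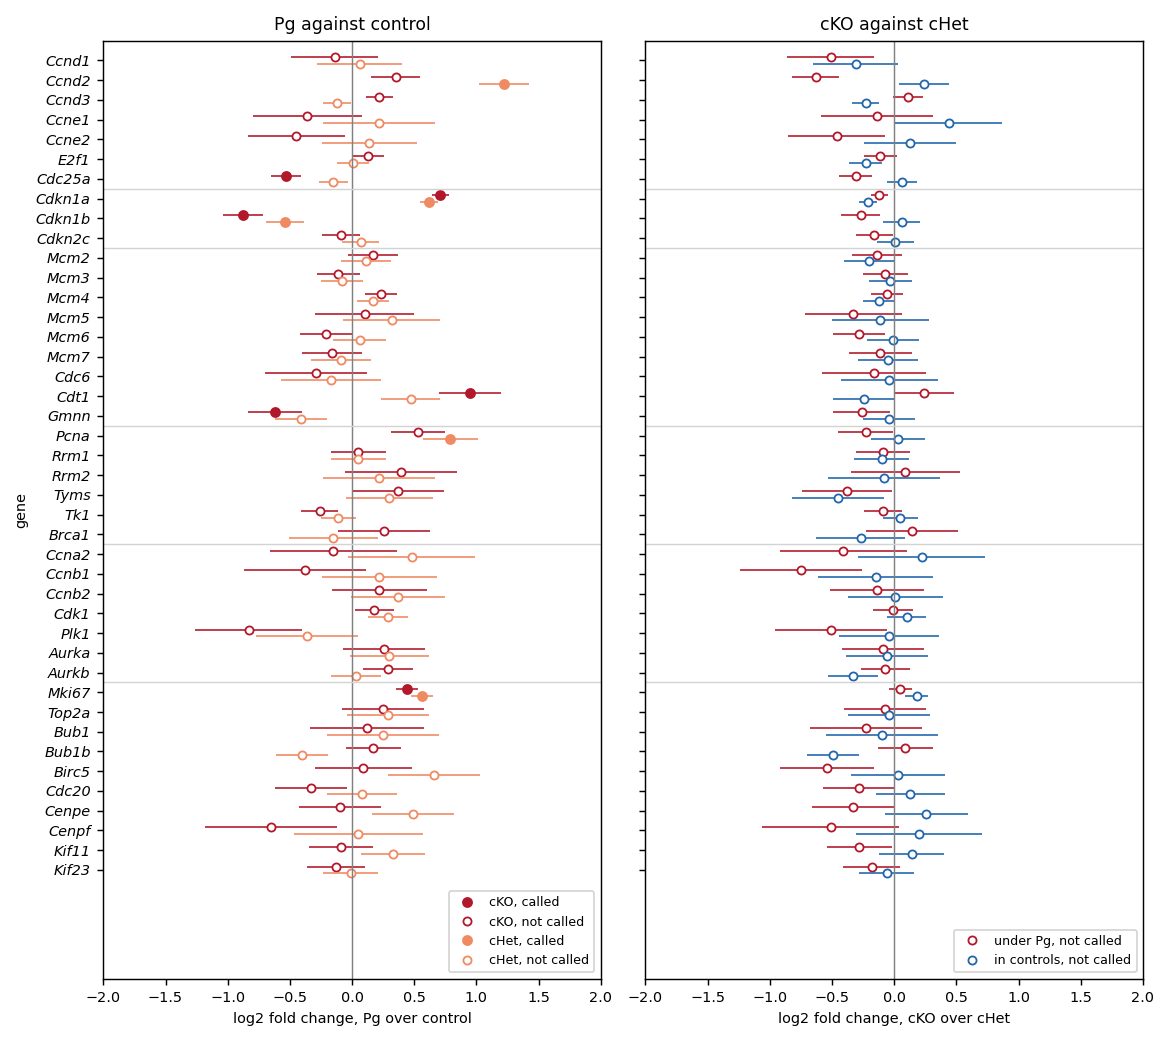
Log2 fold change with its SE (bars) for each of the 42 genes, Pg over control on the left in cKO and in cHet, and cKO over cHet on the right under Pg and in controls. Filled points passed an adjusted p of 0.05, and none on the right did so. The called changes run from -0.88 (Cdkn1b, cKO) to 1.22 (Ccnd2, cHet).

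Among the G1 genes, Ccnd2 (ENSMUSG00000000184, chr6:127125162-127152193, minus strand, mm10), a D-type cyclin that starts the cycle after growth signals, rose in cHet cells. It had 11.5, 19.0 and 16.4 CPM in cHet Pg, against 7.35, 5.77 and 7.10 CPM in cHet control. Every cHet Pg library was above every cHet control library, with a log2 change of 1.22 ± 0.20 (SE, adjusted p 0.000139). In cKO it had 9.35, 7.97 and 13.1 CPM with Pg, against 8.75, 7.6 and 7.47 CPM in control, and these groups overlapped (0.35 ± 0.20, adjusted p 0.193). The difference between the responses was -0.86 ± 0.28 in log2 and did not pass the threshold (adjusted p 0.187).

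Cdc25a (ENSMUSG00000032477, chr9:109875579-109893895, plus strand), the phosphatase that activates CDKs at the start of S phase, fell in cKO cells. Its level was 8.34, 9.46 and 7.71 CPM in cKO Pg, against 11.9, 12.7 and 12.1 CPM in cKO control, with no overlap (log2 change -0.53 ± 0.12, adjusted p 0.00302). In cHet it was 10.8, 9.50 and 11.4 CPM with Pg, against 11.9, 10.8 and 12.6 CPM in control, and the groups overlapped (-0.15 ± 0.12, adjusted p 0.36). The responses differed by -0.37 ± 0.17, short of the threshold (adjusted p 0.38).

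The other 5 genes of this role were not called. The D-type cyclin Ccnd1 averaged 11.3 ± 0.712 CPM in cKO Pg and 12.4 ± 5.88 CPM in cKO control, and 16 ± 4.44 CPM in cHet Pg and 15.4 ± 4.92 CPM in cHet control (SD, n = 3 each). E2f1, the transcription factor that switches on S phase genes, had changes of 0.13 ± 0.13 in cKO and 0.01 ± 0.13 in cHet. The E-type cyclins Ccne1 and Ccne2 were under 5 CPM in every library.

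The CDK inhibitors moved in opposite directions. Cdkn1a (ENSMUSG00000023067, chr17:29090976-29100727, plus strand), which encodes the inhibitor induced by p53, rose in both genotypes. It had 1017, 989.7 and 908 CPM in cKO Pg, against 609.9, 573 and 604 CPM in cKO control (log2 change 0.71 ± 0.07, adjusted p 2.67e-07). In cHet it had 969.9, 1071 and 1128 CPM with Pg, against 681, 693 and 691 CPM in control (0.62 ± 0.07, adjusted p 1.25e-06). Pg and control libraries did not overlap in either genotype.

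Cdkn1b (ENSMUSG00000003031, chr6:134920401-134925513, plus strand) fell in both. It had 13.9, 15.4 and 19.5 CPM in cKO Pg, against 25.2, 31.7 and 32.9 CPM in cKO control (log2 change -0.88 ± 0.16, adjusted p 0.000509). In cHet it had 23.0, 18 and 18.1 CPM with Pg, against 23.4, 31.3 and 31.3 CPM in control (-0.54 ± 0.15, adjusted p 0.0128). The cHet groups nearly touched, since cHet Pg 1 at 23.0 CPM was just under cHet control 1 at 23.4 CPM, and the cHet call was lost without any of cHet control 2 or 3 or cHet Pg 2 or 3. Cdkn2c, an inhibitor of the kinases of D-type cyclins, stayed between 8.26 and 12.2 CPM in all 12 libraries and was not called.

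**Figure D5:**
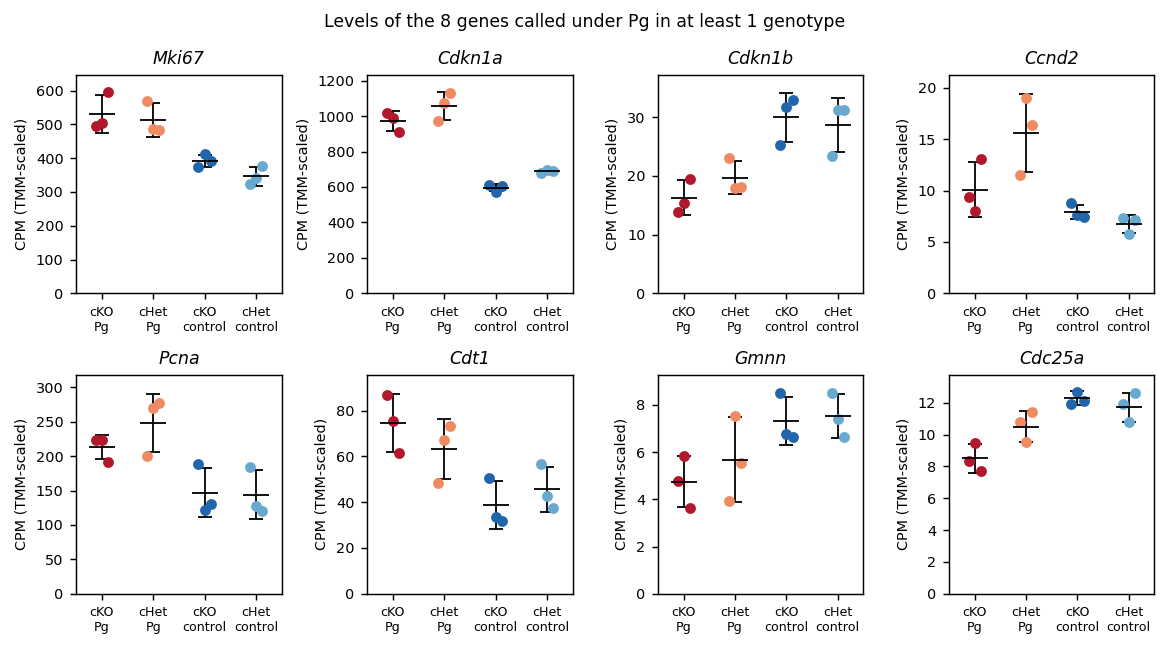
CPM of the 8 genes called under Pg in at least 1 genotype, for the 3 libraries of each group (points) with their mean and SD (bars), cKO Pg, cHet Pg, cKO control and cHet control from left to right. Cdkn1a and Mki67 are above all controls in all 6 Pg libraries, and Cdkn1b is below all controls in all 6.

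In origin licensing, Pg changed the pair that regulates helicase loading, in cKO cells. Cdt1 (ENSMUSG00000006585, chr8:122568015-122573554, plus strand), the loading factor, had 86.8, 75.4 and 61.5 CPM in cKO Pg, against 50.7, 33.4 and 31.6 CPM in cKO control (log2 change 0.95 ± 0.25, adjusted p 0.0152). Gmnn (ENSMUSG00000006715, chr13:24751845-24761923, minus strand), which encodes the Cdt1-binding inhibitor geminin, had 4.77, 5.83 and 3.65 CPM in cKO Pg, against 8.51, 6.79 and 6.65 CPM in cKO control (-0.62 ± 0.22, adjusted p 0.0355). Neither pair of groups overlapped, and each call was lost without particular libraries. Cdt1 was lost without cKO control 2 or 3 or cKO Pg 1 (adjusted p 0.0549 to 0.0607), and Gmnn without cKO control 1 or 2 or cKO Pg 1 or 3 (adjusted p 0.0577 to 0.146).

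In cHet, Cdt1 had 48.6, 67.4 and 73.5 CPM with Pg, against 56.7, 42.9 and 37.3 CPM in control (0.47 ± 0.24, adjusted p 0.175). Gmnn had 3.94, 7.53 and 5.56 CPM in cHet Pg, against 8.51, 7.40 and 6.66 CPM in cHet control (-0.41 ± 0.21, adjusted p 0.153). Both overlapped between cHet groups, and neither response differed between genotypes past the threshold (interaction 0.48 ± 0.35 for Cdt1 and -0.22 ± 0.31 for Gmnn, adjusted p 0.651 and 0.848).

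None of the 6 Mcm genes and not Cdc6 passed the threshold in either genotype. Mcm5, an Mcm2-7 helicase subunit, had 18.3, 19.1 and 11.6 CPM in cKO Pg, against 22.8, 10.7 and 12.2 CPM in cKO control, and 13.2, 24.2 and 24.0 CPM in cHet Pg, against 23.3, 11.9 and 14 CPM in cHet control. Each group held high and low libraries, and its changes were 0.10 ± 0.40 in cKO and 0.32 ± 0.39 in cHet. Changes of the Mcm genes ran from -0.21 (Mcm6) to 0.23 (Mcm4) in cKO and from -0.09 (Mcm7) to 0.32 (Mcm5) in cHet.

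In DNA synthesis and repair, Pcna (ENSMUSG00000027342, chr2:132249162-132253314, minus strand) was the only gene called. It encodes the sliding clamp of replication. It had 200.5, 269.8 and 277 CPM in cHet Pg, against 185, 127 and 119.8 CPM in cHet control (log2 change 0.79 ± 0.22, adjusted p 0.0197). In cKO it had 223, 223 and 192 CPM with Pg, against 188, 122 and 130.4 CPM in control, also without overlap (0.53 ± 0.22), but its adjusted p of 0.0946 missed the threshold. The cHet call was lost without any of cHet control 2 or 3 or cHet Pg 2 or 3 (adjusted p 0.0631 to 0.0723), and with libraries scaled by size alone (0.55, adjusted p 0.0577). Rrm2, the regulated subunit of ribonucleotide reductase, was spread widely, with 16.4, 14.7 and 6.47 CPM in cKO Pg, against 14, 7.35 and 7.35 CPM in cKO control. It had 7.38, 14.1 and 13.7 CPM in cHet Pg, against 14.5, 8.56 and 7.10 CPM in cHet control. Neither genotype separated Pg from control.

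Of the 17 mitotic genes only Mki67 (ENSMUSG00000031004, chr7:135689784-135716361, minus strand) passed the threshold, and it rose in both genotypes. It had 494, 503 and 597 CPM in cKO Pg, against 373, 411 and 392 CPM in cKO control (log2 change 0.44 ± 0.09, adjusted p 0.000684). In cHet it had 569.8, 487 and 483 CPM with Pg, against 323, 341 and 377 CPM in control (0.56 ± 0.09, adjusted p 6.29e-05). Every Pg library was above every control library. With libraries scaled by size alone the change in cKO was 0.19 with an adjusted p of 0.0715.

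The other mitotic genes had high and low libraries in each group. Top2a, the topoisomerase that untangles chromosomes, had 33, 32.4 and 20.2 CPM in cKO Pg, against 35.5, 18.5 and 17.8 CPM in cKO control, and 22.1, 35.8 and 32.0 CPM in cHet Pg, against 31.2, 20.4 and 22.0 CPM in cHet control. The groups overlapped in both genotypes, with changes of 0.25 ± 0.33 in cKO and 0.29 ± 0.33 in cHet. Cdk1, the kinase of mitotic entry, had 10.0, 9.25 and 8.6 CPM in cKO Pg, against 10.4, 7.54 and 6.77 CPM in cKO control, and 8.64, 9.22 and 10.2 CPM in cHet Pg, against 8.74, 7.46 and 6.85 CPM in cHet control. It was tightly held among mitotic genes but also overlapped (0.18 ± 0.16 in cKO and 0.29 ± 0.16 in cHet).

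Plk1, the polo-like kinase of mitosis, had 2.69, 2.13 and 1.17 CPM in cKO Pg, against 5.30, 3.18 and 2.22 CPM in cKO control. In cHet it had 1.90, 3.45 and 3.22 CPM with Pg, against 5.73, 2.16 and 3.05 CPM in control. The groups overlapped, and its changes of -0.83 ± 0.43 in cKO and -0.36 ± 0.41 in cHet did not pass the threshold (adjusted p 0.164 and 0.549). At 17 counts in its lowest library, Plk1 gave a wide error.

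Between genotypes, no gene of the 42 passed the threshold. Under Pg, 0 were called against 1.85% of all genes (0.652% higher and 1.2% lower). In controls 0 were called against 5.15% (2.13% higher and 3.02% lower), and in the mean of both differences 0 against 4.91% (2.13% higher and 2.78% lower). In the interaction, which is the cKO response minus the cHet response, 0 were called against 0.717% (0.457% higher and 0.261% lower, edgeR quasi-likelihood test throughout). With no adjustment, p was under 0.05 for 2, 2, 1 and 2 genes. The share of all genes under this unadjusted p was not at hand, so these counts show nothing particular to the 42. The DESeq2 Wald test called 0, 0, 1 and 0 of the 42, against 2.5%, 6.26%, 5.96% and 1.88% of all genes. The 1 was Cdkn1a, which was lower in cKO. The median log2 difference of cKO to cHet was -0.16 under Pg and -0.04 in controls, against 0.00 for all genes in both.

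Cdkn1a came nearest in controls and in the mean of both differences. In controls its cKO libraries lay below all cHet libraries, with 609.9, 573 and 604 CPM against 681, 693 and 691 CPM (log2 difference -0.21 ± 0.07, adjusted p 0.0792). Under Pg the groups overlapped, with 1017, 989.7 and 908 CPM in cKO and 969.9, 1071 and 1128 CPM in cHet (-0.12 ± 0.07, adjusted p 0.501), and the mean difference was -0.16 ± 0.05 (adjusted p 0.0508). Ccnd2 was the nearest under Pg, at 9.35, 7.97 and 13.1 CPM in cKO and 11.5, 19.0 and 16.4 CPM in cHet (-0.63 ± 0.19, adjusted p 0.136), with cKO Pg 3 above cHet Pg 1. Cdkn1a was called lower in cKO in controls without cHet Pg 1 and in the mean without cHet Pg 1 or cKO Pg 1, and Ccnd2 under Pg without cHet Pg 1 or cKO Pg 3 and in the interaction without cKO Pg 3. Stromal and fibroblast markers differed between the genotypes. The sum of 14 genes, of which 9 passed the filter and Lum was at 0 in every library, was 3.98 to 5.91 CPM in cKO Pg and 35.1 to 43.8 CPM in cHet Pg, and 2.99 to 3.98 CPM in cKO control and 35.5 to 36.7 CPM in cHet control. Their part in the values of the 42 genes was not tested.

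Other genes of the same processes, listed by role, were read beside the 42. Of 32 other G1 and S phase regulators tested, 12 were higher and 5 lower with Pg in each genotype, 53.1% against 34% of all genes in cKO and 36.1% in cHet. Mdm2, which encodes the p53 ubiquitin ligase, changed by 1.78 ± 0.08 in cKO and 1.80 ± 0.08 in cHet. It had 936 ± 87.7 CPM in cKO Pg and 273 ± 17.6 CPM in cKO control, and 1023 ± 58.2 CPM in cHet Pg and 293 ± 10.6 CPM in cHet control (SD, n = 3 each). Mdm2 and Cdkn1a are both textbook p53 targets, but a part of p53 in their changes was not tested. The stress gene Gadd45b changed by 1.71 ± 0.12 in cKO and 1.55 ± 0.12 in cHet, the antiproliferative Btg1 by 1.18 ± 0.07 in cKO and 1.29 ± 0.07 in cHet, and the repressor E2f8 by 1.10 ± 0.17 in cKO and 1.12 ± 0.17 in cHet.

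Among 54 other replication genes, 1 was higher and 5 lower in cKO (11.1% against 34% of all genes), and 2 were higher and 2 lower in cHet (7.41% against 36.1%). Chaf1b, a subunit of the histone chaperone that loads behind the fork, rose by 1.08 ± 0.18 in cKO and 0.84 ± 0.17 in cHet. Pold3, a polymerase delta subunit, fell in cKO (-0.41 ± 0.07), and the origin recognition gene Orc3 fell in both (-0.35 ± 0.09 in cKO and -0.40 ± 0.09 in cHet). Of 64 other mitosis genes tested, 4 were higher and 3 lower in cKO (10.9%), and 6 were higher and 3 lower in cHet (14.1%). Lin54, a subunit of the DREAM complex that binds CHR elements, rose by 1.07 ± 0.13 in cKO and 0.88 ± 0.13 in cHet, and the spindle checkpoint gene Mad2l1 by 0.85 ± 0.18 in cKO and 1.01 ± 0.18 in cHet.

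Between genotypes, the other G1 and S phase regulators had 1 call under Pg (3.12% against 1.85% of all genes), 1 in controls (3.12% against 5.15%) and 2 in the mean of both differences (6.25% against 4.91%). Btg2, an antiproliferative gene, was lower in cKO controls (-0.64 ± 0.14, adjusted p 0.0236) and Cdk6, a kinase of D-type cyclins, under Pg (-0.39 ± 0.09, adjusted p 0.0316). In the mean of both differences, Gadd45a (-0.23 ± 0.06, adjusted p 0.0364) and Ccng2 (-0.27 ± 0.07, adjusted p 0.0436) were lower in cKO. Btg2 lost its call without any of cHet control 2 or 3 or cKO control 1 or 3, and Cdk6 without cHet control 3, cHet Pg 1 or 3 or cKO Pg 1 or 2. Gadd45a kept its call without cHet control 1 or 3, cHet Pg 3, cKO control 1 or cKO Pg 2 and lost it without any other library, and Ccng2 kept its call only without cHet control 1 or cKO control 3. Ccng2 also lost it with libraries scaled by size alone (adjusted p 0.0661). None of the other replication and mitosis genes was called between genotypes by edgeR, in controls, under Pg or in the mean. There 0 to 4 of each list had an unadjusted p under 0.05, again without the share of all genes to set beside it.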

How the data were processed

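The deposited table holds unnormalized counts of reads for each gene in all 12 libraries, with mm10 gene positions. The submitters' processing notes list fastp, featureCounts 1.5.0-p3 and HISAT2 2.0.5, and the build mm10. How multi-mapping reads and strand were handled, and with which annotation release, was not given in the sources used here, and such choices can move reads between overlapping or near-identical genes. The tests used edgeR 4.0.16 under R 4.3.3, with filterByExpr by group, TMM scaling, a means model over all 12 libraries and the robust quasi-likelihood F test. Adjustment was by Benjamini-Hochberg over the 13800 genes kept, at 0.05, and these are the adjusted p-values given where no other tool is named. The SE of a log2 fold change is its size over the square root of F. DESeq2 1.42.0 was an alternative. Levels are CPM on TMM-scaled library sizes, with a prior count of 2 on the log2 scale, and means carry SDs of 3 libraries. Library pairs within a group differed beyond sampling noise (2.59 to 17.3 in chi-square per gene), so none was merged. The members, their roles, the pathway and marker lists and the motifs were chosen with earlier results of these data known. Of each pathway list, up to 4 genes with the smallest p in a comparison could be named, and any of the 42 genes. The fit was tested on simulated counts, with changes set in cHet Pg. Of the changed genes kept, 67.7% were called in the right direction at a log2 change of 1 and 93.8% at 2. There were 8 false calls among 13524 genes. Each simulated gene varied on its own, so the shared order of libraries described above was not part of this test. Groups came from the sample titles and genotype labels. Alternatives were DESeq2 size factors, library size alone, the DESeq2 Wald test, no filter, a mean CPM of at least 1, a replicate block and leaving out each library.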

Additional observations from a re-analysis of the deposited data

Results flagged for a closer look

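Of the genes read here, only Cdc25b, a phosphatase that activates CDKs at mitotic entry, passed a test of the difference between the Pg responses of the genotypes. It is among the other mitosis genes and not among the 42. It was 1 call of 64 tested in that list (1.56%), against 0.717% of all genes. The 42 genes, the 32 other G1 and S phase regulators and the 54 other replication genes had 0. It averaged 11.9 ± 0.942 CPM in cKO Pg and 12.1 ± 1.38 CPM in cKO control, and 9.13 ± 0.602 CPM in cHet Pg and 15.9 ± 0.797 CPM in cHet control (SD, n = 3 each). The response in cKO was -0.02 ± 0.12 and in cHet -0.80 ± 0.12 on the log2 scale. Their difference, the interaction, was 0.77 ± 0.17 (edgeR adjusted p 0.0415), and no explanation of it was tested. It kept the call only without cKO control 3 or cKO Pg 3 and lost it without each of the other 10 libraries, where the adjusted p was 0.0623 to 0.135.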

How the results depend on the processing

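Counts of called genes depended on the scaling. Library size alone moved the median of all genes to -0.25 in both Pg comparisons. In cHet, 5 of the 42 genes were then lower with Pg (Ccnd3, Cdc25a, Cdkn1b, Gmnn and Bub1b) in place of 1. All 13800 genes split into 1288 higher and 5438 lower in cHet, in place of 2490 each, and 1229 higher and 5343 lower in cKO. Of the 54 other replication genes, 19 were lower in cKO and 14 in cHet, in each genotype a smaller share than among all genes. With no filter, 1 gene was lower in cKO in each genotype comparison and 1 in the interaction: Cdkn1a in controls (1) and in the mean (1), Ccnd2 under Pg (1) and in the interaction (1). Of all genes, 4.02% were then called in controls, 1.85% under Pg, 4.02% in the mean and 1.42% in the interaction. The DESeq2 Wald test gave 1 lower in the mean, Cdkn1a, and called 5.96% of all genes there. Leaving out each library in turn gave 2 to 5 genes higher and 2 to 3 lower with Pg in cKO, and 3 to 6 higher and 0 to 1 lower in cHet. Of all genes, 27.2% to 34% were then called in cKO and 29.1% to 36.1% in cHet. Leaving out a library gave 0 higher and 0 to 1 lower in each of the genotype comparisons and in the interaction. The shares of all genes were 2.26% to 5.86% in controls, 1.08% to 2.17% under Pg, 3.54% to 5.06% in the mean and 0.298% to 1.47% in the interaction. Pg calls gained in this way were, in cHet, Mcm4 and Cenpe without cHet control 1 and Gmnn (lower) without cHet Pg 2, and, in cKO, Pcna and Aurkb without cKO control 1 and Ccnd3 without cKO control 2. The genotype calls gained were Cdkn1a and Ccnd2, as given above. Cdkn1a and Mki67 in both genotypes, Ccnd2 in cHet, and Cdc25a and Cdkn1b in cKO kept their calls without any single library. Pcna in cHet lost its call under library size alone (0.55, adjusted p 0.0577) and with no filter (0.77, adjusted p 0.0562). Over the 11 calls of the 42 genes and 18 alternatives, 180 of 198 values stayed past the threshold, 18 fell short and none changed direction. Whether replicate numbers pair the libraries was not settled. Same-numbered libraries of different groups had deviations correlated above 0.1 in 5 of 18 pairs (-0.29 to 0.32). Differently numbered libraries were not compared, so these values cannot decide it. With the replicate block, 3 of the 42 genes were higher and 3 lower with Pg in cKO (32.2% of all genes called). In cHet 4 were higher and 1 lower (34.2% of all genes called). By genotype 0 of the 42 differed, against 3.98% of all genes in controls, 1.59% under Pg and 4.21% in the mean. Orc4 with Pg in cHet (0.33, adjusted p 0.0652) and Cdc25b in the interaction (0.78, adjusted p 0.07) lost their calls under the block. Gadd45a in the mean genotype difference (-0.23, adjusted p 0.0594) lost its call too. The lowest count of any of the 42 genes in a library was 14.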
